A study of Homo sapiens with 8 samples.

Results

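The replication-dependent histone genes, the clustered genes that supply histones H1, H2A, H2B, H3 and H4 for newly copied DNA, were followed in 2 human multiple myeloma cell lines after forced expression of CTBP2. They were taken as every gene of the deposited FPKM table (fragments scaled by transcript length and library depth) whose symbol starts with HIST1H, HIST2H, HIST3H or HIST4H. This gave 73 of 25906 genes. Of these, 46 reached 1 FPKM or more in at least 2 of the 8 libraries and were tested, and 27 did not. The 73 genes comprised 6 H1, 18 H2A, 20 H2B, 14 H3 and 15 H4 genes, of which 3, 12, 13, 9 and 9 were tested. By cluster, 32 of 56 HIST1, 11 of 13 HIST2, 2 of 3 HIST3 and the 1 HIST4 gene were tested.

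MM.1S and NCI-H929 are established plasma cell tumour lines. Each was transduced by lentivirus with an empty vector or with a vector carrying CTBP2, a corepressor recruited by DNA-bound repressors, for 72 hours, and all 8 libraries come from transduced cells. Each line and vector has 2 libraries, described by the submitters as biological duplicates. The series title places the work in the study of CTBP2 as a tumour suppressor in myeloma, and the comparison asks which transcripts change with CTBP2. In bulk RNA of this kind, fewer cells of a type and less RNA per cell cannot be told apart.

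Histone messages of these families are made mainly in S phase, when DNA is copied and new nucleosomes are needed. Most end in a short conserved stem-loop that the protein SLBP binds, in place of a poly(A) tail, and they are degraded when replication stops. Several of the genes, among them HIST1H1C, HIST1H2AC, HIST1H2BD, HIST1H2BK and HIST2H2BE, are also known to give messages with a poly(A) tail that do not depend on S phase. The labels do not state how messenger RNA was selected, so a larger amount of a histone message and a larger share of it carrying a tail cannot be told apart here.

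The line of each library was read from its markers. CCND2, a D-type cyclin, was above 10 FPKM in 4 libraries, and FGFR3, a receptor tyrosine kinase, was above 10 FPKM in the other 4. These states matched the labels in all 4 empty vector libraries and in both CTBP2 replicate 1 libraries. They went against the labels in the other two: the library labelled NCI-H929 CTBP2 replicate 2 was CCND2-expressing, and that labelled MM.1S CTBP2 replicate 2 was FGFR3-expressing. CTBP2 itself was at 0.148 to 0.213 FPKM in the empty vector libraries and at 1621 to 5884 FPKM in the CTBP2 libraries, as every vector label gives. Values below are grouped by marker state, with the CTBP2 replicate 1 library of the line first and the library whose line label goes against its markers second. No label was changed, and the counts are also given with the line as labelled and over the 6 libraries without both displaced ones. The spacing of low values gave estimated depths of 16000000 to 21150000 fragments per library. At the median length of the histone transcripts, 462 bases, 1 FPKM is then about 7.39 to 9.77 fragments.

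Sequences of the histone messages are shown first because the class is defined by how its messages end. A search of the GENCODE release 29 transcripts for the histone stem-loop consensus, with its inner stem bases and last loop base left free, found a match in 32 of the 73 genes. Many transcripts without a match were short, such as 381 bases for HIST1H2BK and 411 bases for HIST1H3D, and may stop before the stem-loop. A missing match therefore does not show that a gene lacks it. The forms below are printed with 5 bases on each side and with the stem-loop in capitals.
HIST1H2AC stem-loop: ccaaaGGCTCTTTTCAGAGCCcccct
HIST1H2BD stem-loop: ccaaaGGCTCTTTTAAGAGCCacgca
HIST2H2BC stem-loop: ccaaaGGCTCTTTTCAGGGCCattta
HIST1H4H stem-loop: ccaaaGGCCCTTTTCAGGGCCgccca
HIST2H4B stem-loop: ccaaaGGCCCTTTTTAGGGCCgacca
The first form was carried by 6 H2A, 8 H2B and 3 H3 genes and the form of HIST1H2BD by 3 H2B and 2 H3 genes. The form of HIST2H2BC was found in that pseudogene and in 1 H2A gene. The H4 genes carried stems of their own, 5 with the form of HIST1H4H and 3 with that of HIST2H4B. In 21 genes an annotated transcript ran 300 bases or more past the stem-loop, as a message with a poly(A) tail would, and 14 of these also had AATAAA, the usual poly(A) signal, in their last 45 bases. Of all 32 genes with a match, 28 reached the level needed for testing. Of the 21 genes, 20 did, against 26 of the other 52. Most of those 52 had no match, so their transcripts could not be seen to run past one. Longer models can also gather more fragments, and the part of this in the difference was not tested.

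Promoters were taken from RefSeq (GRCh38.p14), which matched 65 of the 73 genes. The deposited values use GRCh37, so only gene names link these sequences to the values. The windows below are the 200 bases before the annotated start and stand for a gene the results turn on in each type, plus HIST2H2BE, whose divergent partner behaved differently. Capitals mark CCAAT boxes (CCAAT or ATTGG), the octamer (ATTTGCAT or ATGCAAAT) bound by POU factors, and TATAAA or its complement.
HIST1H1C, chr6:26056471-26056670, minus strand: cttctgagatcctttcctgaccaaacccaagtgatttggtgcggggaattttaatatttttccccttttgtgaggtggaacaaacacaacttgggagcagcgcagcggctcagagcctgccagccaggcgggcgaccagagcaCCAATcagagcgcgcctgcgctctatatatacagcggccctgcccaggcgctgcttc
HIST1H2AC, chr6:26123972-26124171, plus strand: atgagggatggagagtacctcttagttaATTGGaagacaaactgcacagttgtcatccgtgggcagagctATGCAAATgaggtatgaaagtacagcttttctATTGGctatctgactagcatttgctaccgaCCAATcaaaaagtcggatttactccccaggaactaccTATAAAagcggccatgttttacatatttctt
HIST1H2BK, chr6:27146859-27147058, minus strand: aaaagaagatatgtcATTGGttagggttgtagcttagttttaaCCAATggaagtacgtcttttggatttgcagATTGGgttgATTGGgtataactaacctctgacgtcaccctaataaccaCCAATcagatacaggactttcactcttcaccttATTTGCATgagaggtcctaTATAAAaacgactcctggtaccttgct
HIST2H2BE, chr1:149886683-149886882, minus strand: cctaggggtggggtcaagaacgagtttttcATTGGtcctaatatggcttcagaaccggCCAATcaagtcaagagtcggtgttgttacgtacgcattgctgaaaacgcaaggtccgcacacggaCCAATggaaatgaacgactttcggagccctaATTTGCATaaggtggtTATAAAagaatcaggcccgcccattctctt
HIST1H3H, chr6:27809851-27810050, plus strand: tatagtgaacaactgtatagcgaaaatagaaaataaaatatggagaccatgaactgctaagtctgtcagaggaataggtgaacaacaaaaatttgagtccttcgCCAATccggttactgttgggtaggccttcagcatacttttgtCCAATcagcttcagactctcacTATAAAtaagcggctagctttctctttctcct
HIST1H4H, chr6:26285535-26285734, minus strand: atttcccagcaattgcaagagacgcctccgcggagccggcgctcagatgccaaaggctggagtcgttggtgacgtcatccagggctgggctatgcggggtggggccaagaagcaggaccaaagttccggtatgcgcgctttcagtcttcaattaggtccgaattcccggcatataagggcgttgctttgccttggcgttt
Over windows of 250 bases before to 50 after the start, the octamer was present in 14 of 18 H2B, 11 of 16 H2A and 1 of 12 H3 promoters and in none of 6 H1 or 13 H4 promoters, against 1.80% of all 27305 promoters. CCAAT was present in all 6 H1, 16 H2A, 18 H2B and 12 H3 promoters and in 3 of 13 H4 promoters, against 35.7% of all promoters. TATAAA was present in 43 of 65, against 11.95%. All motifs were searched on both strands, and no motif contains another. Windows of close neighbours on opposite strands overlap, so the same bases can count for both genes. HIST1H2AC and HIST1H2BC share an octamer in this way, as do HIST2H2AC and HIST2H2BE. HIST1H3D and HIST1H2AD have the same window. The E-box CACGTG, the core bound by MYC and MAX, was in 0 of 65 windows, against 7.43%. The E2F letters TTTGGCGC were in 0 of 65 against 0.659%, and TTTCCCGC in 1 H4 window against 1.66%. A window without the letters says nothing about binding of a factor.

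**Figure D1:**
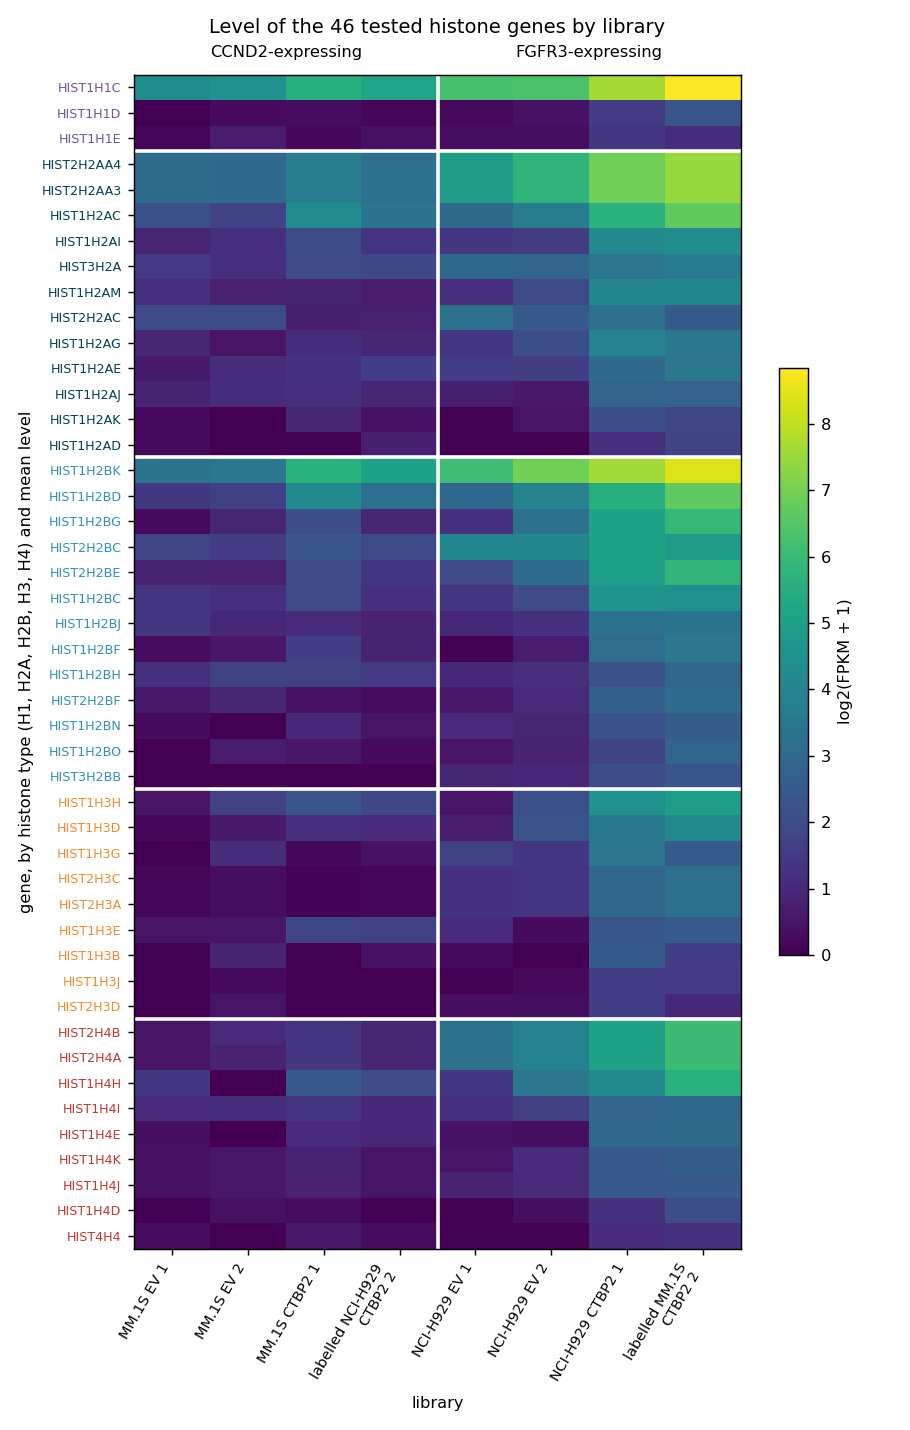
Heat map of log2(FPKM + 1) for the 46 tested histone genes (rows, grouped by type and ordered by mean level) in 8 libraries (columns, grouped by marker state). The 2 right-hand columns, FGFR3-expressing cells with CTBP2, are the brightest for 45 of the genes, and HIST2H2AC is the exception.

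Histone genes were higher with CTBP2, with more genes called in FGFR3-expressing than in CCND2-expressing cells. Within FGFR3-expressing libraries 45 of 46 tested genes were called higher and 0 lower, where 18.3% of all 12583 tested genes were called higher (limma, Benjamini-Hochberg adjusted p under 0.05). The median log2 fold change of the 46 was 1.79, against 0.05 over all tested genes. Within CCND2-expressing libraries 5 of 46 were called higher and 0 lower, against 3.67% of all genes, with a median of 0.37 against 0.00. Those 5 were HIST1H2AC, HIST1H2BD, HIST1H2BK, HIST1H3E and HIST1H4E. In a model of both lines together 30 of 46 were called higher and 0 lower, against 17.4% of all genes, with a median of 1.06 against 0.04. Fold changes are on the log2(FPKM + 1) scale throughout, which understates the change of low genes.

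Passing the filter was itself tied to CTBP2. Of the 46 tested genes, 17 passed only through the FGFR3-expressing CTBP2 libraries and so had to differ there. HIST1H2AK, HIST1H2BF, HIST1H2BN, HIST2H2BF, HIST1H4E and HIST4H4, described below, are among them. Among the 29 genes that passed in the other 6 libraries, 28 were called higher in FGFR3-expressing cells, where 16.2% of genes chosen the same way were. With no filter, 45 of 69 histone genes above 0 in any library were called higher there, against 12.4% of all genes, 15 in both lines together (9.15%) and 0 in CCND2-expressing cells (1.4%).

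The displaced libraries carry weight in these counts. With the line as labelled, HIST1H3E was the 1 gene called in both lines together (1.53% of all genes called higher) and 0 were called within the lines labelled MM.1S and NCI-H929 (0.00795% and 0.0477%), where 6 and 1 of 46 had an unadjusted p under 0.05, shares of 13.0 and 2.17% against 19.3 and 16.6% of all genes. The order of the medians also turned: as labelled they were 1.48 in MM.1S and 0.67 in NCI-H929, against 0.37 and 1.79 by marker state. Without both displaced libraries, 35 histone genes were tested, each state held 1 CTBP2 library, and that lone library was assumed to vary like the rest. Then 31 of 35 were called higher in FGFR3-expressing cells (7.90% of all genes), 9 of 35 higher and HIST2H2AC lower in CCND2-expressing cells (5.73% higher), and 25 of 35 higher in both together (11.6%). Same-numbered libraries deviated together within a marker state. With the replicate number as a block, the count in CCND2-expressing cells was 13 higher rather than 5, with HIST2H2AC lower (13.3% of all genes higher), 45 were higher in FGFR3-expressing cells (27.5%), and 25 in both together (19.6%). The count of 5 in CCND2-expressing cells also moved with single libraries. Fits without 1 library of that state leave a group of 1 and called few genes of any kind. A lower count there does not show an absent change. The median log2 fold change of the histone genes was 0.32 and 0.34 without MM.1S empty vector replicates 1 and 2. It was 0.18 without MM.1S CTBP2 replicate 1 and 0.49 without the displaced CCND2-expressing library, against -0.01 to 0.00 over all genes.

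**Figure D2:**
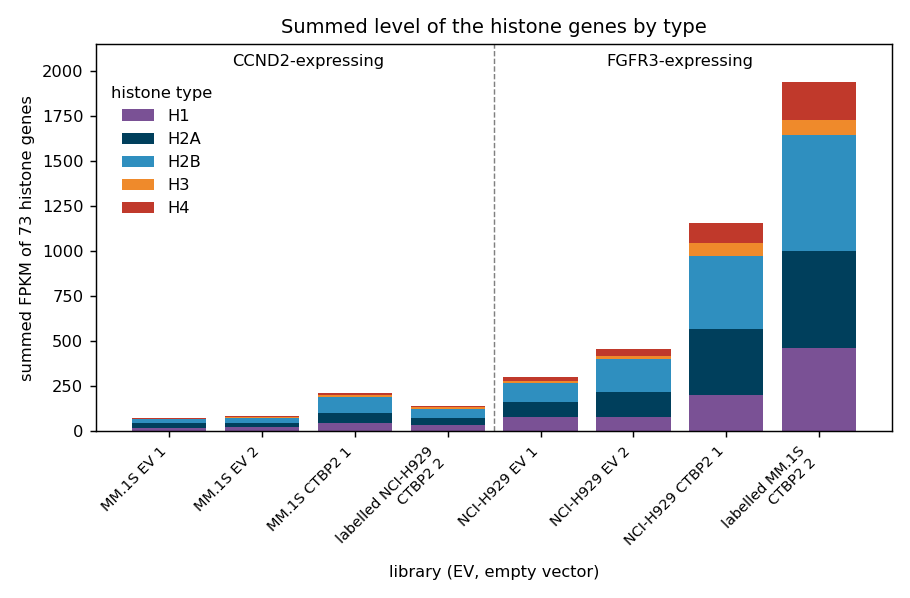
Stacked bars of the summed FPKM of all 73 histone genes in each library, coloured by histone type and grouped by marker state. The sum runs from 75.2 FPKM in an MM.1S empty vector library to 1937 FPKM in the displaced FGFR3-expressing library.

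Summed over the 73 genes, the level was 75.2 and 84.6 FPKM with the empty vector and 215 and 142 FPKM with CTBP2 in CCND2-expressing libraries. In FGFR3-expressing libraries it was 301 and 459 FPKM with the empty vector and 1155 and 1937 FPKM with CTBP2. Groups did not overlap in either state, and the ratio of means was 2.23 in CCND2-expressing and 4.07 in FGFR3-expressing cells. By type, the ratio in FGFR3-expressing cells was 4.25 for H1, 3.95 for H2A, 3.67 for H2B, 7.08 for H3 and 4.78 for H4. In CCND2-expressing cells it was 2.06, 1.67, 3.18, 1.79 and 2.28 in the same order. Without HIST1H1C, the most abundant H1 gene, the H1 ratio was 0.98 in CCND2-expressing and 7.37 in FGFR3-expressing cells, and without HIST1H2BK the H2B ratio in FGFR3-expressing cells was 5.54. Such sums hold near-identical copies counted under each name and get no test. H1, H2A and H2B together made up most of the sum in every library, while H3 gave 2.20 to 9.14% and H4 5.55 to 10.9%.

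The CTBP2 libraries lay above both empty vector libraries for 45 of 46 tested genes in FGFR3-expressing cells (54 of all 73), where 37.0% of all tested genes did so. Of the 46, 17 passed the filter only through those CTBP2 libraries, so their separation there is partly set by the filter. In CCND2-expressing cells they lay above for 22 of 46 tested genes (23 of all 73), against 31.6% of all tested genes, and below for 4 of 46 (6 of all 73), against 31.3%. Over all 8 libraries regardless of line, 3 of 46 tested histone genes had all 4 CTBP2 values above the 4 empty vector values. That is near the share over all tested genes, 7.21%. The 3 were HIST1H2BF, HIST1H3E and HIST1H4E. HIST1H2BF and HIST1H4E passed the filter only through the FGFR3-expressing CTBP2 libraries.

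Among H1 genes, which encode the linker histone that binds DNA between nucleosomes, HIST1H1C was by far the most abundant. HIST1H1C (Entrez 3006) was at 18.7 and 21.1 FPKM with the empty vector and 48.4 and 34.7 FPKM with CTBP2 in CCND2-expressing cells. In FGFR3-expressing cells it was at 76.9 and 78.2 FPKM with the empty vector and 198 and 457 FPKM with CTBP2. The CTBP2 values were the higher ones within each state. Its log2 fold change was 1.48 in both lines together (SE 0.28, limma adjusted p = 0.00697) and 1.94 in FGFR3-expressing cells (SE 0.35, adjusted p = 0.00663). In CCND2-expressing cells the difference of 1.01 did not pass (SE 0.35, adjusted p = 0.117), but did over the 6 libraries (1.24, adjusted p = 0.0154) and with the replicate block (adjusted p = 0.0378). HIST1H1D and HIST1H1E, the other tested H1 genes, were also called higher in FGFR3-expressing cells, by 1.57 and 0.93, but reached no more than 3.92 and 1.61 FPKM. Both passed the filter only through the FGFR3-expressing CTBP2 libraries. HIST1H1A, HIST1H1B and HIST1H1T were not tested and stayed under 0.4 FPKM in every library.

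H2A, which pairs with H2B in the nucleosome, was called higher for 11 of 12 tested genes in FGFR3-expressing cells, with a median log2 fold change of 1.86. Of the 12, 10 passed the filter in the 6 libraries other than FGFR3-expressing CTBP2. Of those 10, 9 were called higher, against 16.2% of all genes chosen the same way. The most abundant, HIST2H2AA4 (Entrez 723790), was at 7.69 and 7.04 against 12.4 and 8.46 FPKM in CCND2-expressing cells, and at 28.2 and 53.2 against 117 and 176 FPKM in FGFR3-expressing cells. It differed by 1.86 in the latter (SE 0.32, limma adjusted p = 0.00562) and by 0.43 in the former (adjusted p = 0.424). HIST2H2AA3, its near-identical copy, had the same values within 1% in all 8 libraries, so the pair cannot be told apart.

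HIST1H2AC (Entrez 8334) was among the few histone genes called in each state. It rose from 3.62 and 2.55 to 18.1 and 9.20 FPKM in CCND2-expressing cells and from 7.36 and 12.2 to 49.4 and 102 FPKM in FGFR3-expressing cells. The groups were apart in both. The log2 fold changes were 1.78 (SE 0.41, limma adjusted p = 0.0453) and 2.78 (SE 0.41, adjusted p = 0.00337), and over the 6 libraries 2.24 and 2.26 (adjusted p = 0.0119 and 0.00672).

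Other H2A genes were lower in abundance. HIST3H2A (Entrez 92815), a gene of the small HIST3 cluster, was at 1.75 and 1.29 against 3.04 and 2.81 FPKM in CCND2-expressing cells, and at 7.15 and 6.37 against 10.0 and 11.3 FPKM in FGFR3-expressing cells. Its log2 differences were 0.65 (SE 0.16, limma adjusted p = 0.0534, or 0.0178 with the replicate block) and 0.58 (SE 0.16, adjusted p = 0.0262), and the difference between states was -0.06 (SE 0.22, adjusted p = 0.939). Over the 6 libraries the value in FGFR3-expressing cells was 0.51 and did not pass (adjusted p = 0.129). HIST1H2AE (Entrez 3012) was at 0.575 and 1.21 against 1.37 and 2.06 FPKM in CCND2-expressing cells and rose from 2.03 and 2.07 to 7.33 and 10.2 FPKM in FGFR3-expressing cells. HIST1H2AK (Entrez 8330) was at 0.197 and 0 against 0.935 and 0.352 FPKM in the former and rose from 0 and 0.377 to 3.34 and 2.603 FPKM in the latter, and it was too low to be tested over the 6 libraries. Both had separate groups in each state, and their log2 fold changes in FGFR3-expressing cells were 1.67 and 1.75 (limma adjusted p = 0.00281 and 0.00246). In CCND2-expressing cells HIST1H2AE passed with the replicate block (adjusted p = 0.0386) and not without it (0.180).

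H2B, the partner of H2A, was called higher for all 13 tested genes in FGFR3-expressing cells, with a median of 2.06. Of the 13, 5 passed the filter only through the FGFR3-expressing CTBP2 libraries. The other 8 were called higher where 16.2% of all genes chosen the same way were. HIST1H2BK (Entrez 85236), the most abundant, rose from 9.58 and 10.5 to 49.0 and 33.5 FPKM in CCND2-expressing cells and from 67.7 and 123 to 197 and 327 FPKM in FGFR3-expressing cells. It was 1 of 2 tested genes, with HIST3H2A, whose log2 fold change was larger in the CCND2-expressing state: 1.91 (SE 0.34, limma adjusted p = 0.0230) against 1.46 (SE 0.34, adjusted p = 0.0151). That difference, -0.45, was within its error (SE 0.48, adjusted p = 0.736). Over the 6 libraries the value in FGFR3-expressing cells was 1.10 and did not pass (adjusted p = 0.0598).

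HIST1H2BD (Entrez 3017) had the largest change of the histone genes in both lines together, 2.41 (SE 0.32, limma adjusted p = 0.00277). Its level was 1.68 and 2.23 against 17.2 and 8.42 FPKM in CCND2-expressing cells, and 6.80 and 14.6 against 46.7 and 101 FPKM in FGFR3-expressing cells. The groups were apart in both states, the fold changes there were 2.15 and 2.66 (adjusted p = 0.0379 and 0.00558), and both passed over the 6 libraries (adjusted p = 0.0128 and 0.0135).

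HIST1H2BF (Entrez 8343) was at 0.220 and 0.464 against 2.09 and 0.786 FPKM in CCND2-expressing cells and rose from 0 and 0.632 to 7.98 and 10.4 FPKM in FGFR3-expressing cells, by 2.98 (SE 0.31, limma adjusted p = 0.00129). HIST1H2BN (Entrez 8341) was at 0.205 and 0 against 0.973 and 0.392 FPKM in the CCND2-expressing state and rose from 1.12 and 0.883 to 3.67 and 5.08 FPKM in the other, by 1.41 (SE 0.21, adjusted p = 0.00369). For both, groups were apart in each state, and the difference in CCND2-expressing cells passed over the 6 libraries (adjusted p = 0.0382 and 0.0375) and with the replicate block (0.0488 and 0.0375) but not in the fit of 8 libraries without it (0.142 and 0.127).

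**Figure D3:**
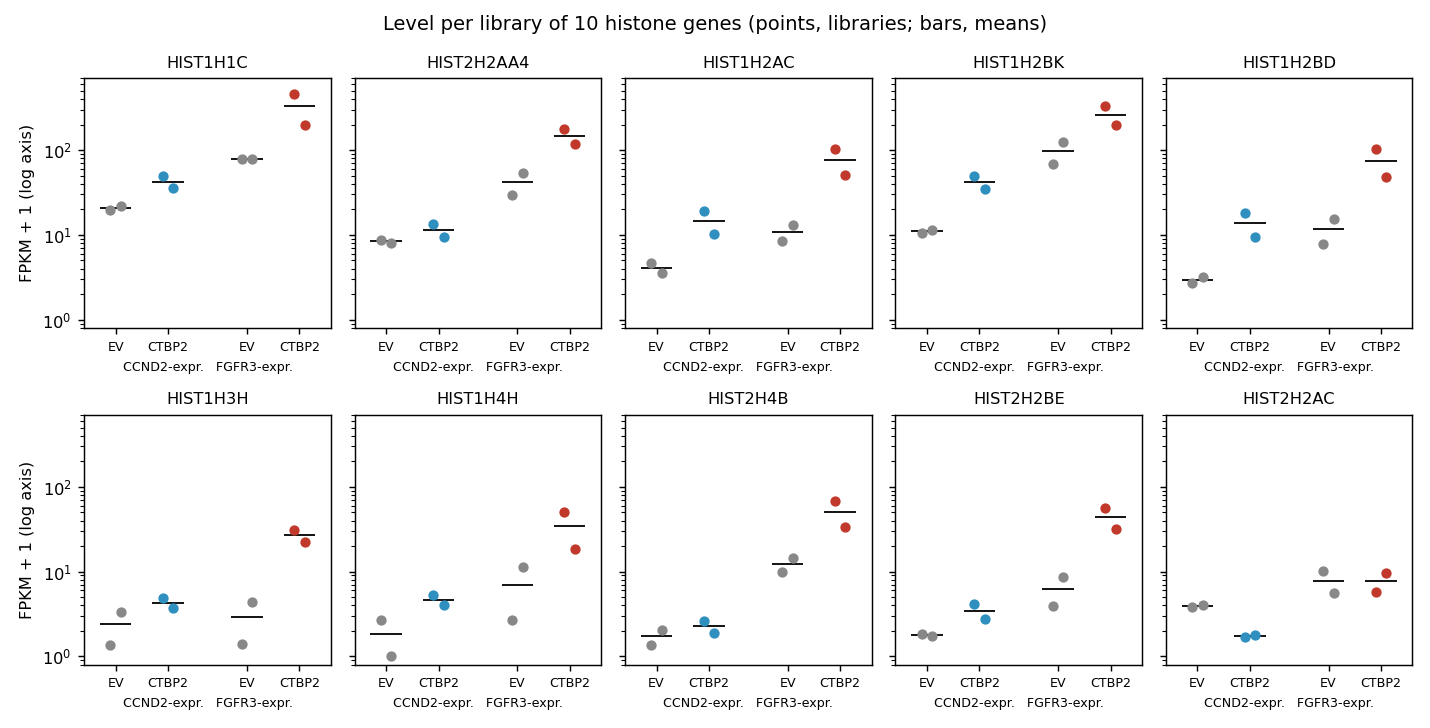
Level of 10 histone genes in each library, as FPKM + 1 on a log axis, by marker state and vector, with points for libraries and bars for the mean of 2. In FGFR3-expressing cells (red, CTBP2) 9 of the 10 lie clear of the empty vector points, and HIST2H2AC overlaps them.

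H3, which with H4 forms the central tetramer of the nucleosome, was called higher for all 9 tested genes in FGFR3-expressing cells, with a median of 1.76. Of the 9, 3 passed the filter only through the FGFR3-expressing CTBP2 libraries. The other 6 were called higher where 16.2% of all genes chosen the same way were. HIST1H3H (Entrez 8357) was at 0.376 and 2.38 against 3.88 and 2.69 FPKM in CCND2-expressing cells and rose from 0.402 and 3.43 to 21.3 and 30.2 FPKM in FGFR3-expressing cells. Its change there, 3.40 (SE 0.56, limma adjusted p = 0.00488), was the largest among the histone genes, although its empty vector libraries differed several-fold from each other. In CCND2-expressing cells the difference of 0.98 did not pass (adjusted p = 0.297).

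HIST1H3E (Entrez 8353) was called in both states. It rose from 0.391 and 0.412 to 2.63 and 2.27 FPKM in CCND2-expressing cells and from 1.06 and 0.187 to 4.15 and 4.85 FPKM in FGFR3-expressing cells. Every CTBP2 library lay above every empty vector library. The fold changes were 1.30 (SE 0.24, limma adjusted p = 0.0256) and 1.81 (SE 0.24, adjusted p = 0.00254). HIST1H3D (Entrez 8351) was at 0.141 and 0.552 against 1.36 and 1.16 FPKM in CCND2-expressing cells and at 0.619 and 3.75 against 10.8 and 17.2 FPKM in FGFR3-expressing cells, with differences of 0.76 (adjusted p = 0.309) and 2.40 (SE 0.45, adjusted p = 0.00734).

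All 9 tested H4 genes were called higher in FGFR3-expressing cells, with a median of 1.73. Of the 9, 5 passed the filter only through the FGFR3-expressing CTBP2 libraries. The other 4 were called higher where 16.2% of all genes chosen the same way were. HIST2H4B (Entrez 554313) was at 0.380 and 1.07 against 1.61 and 0.906 FPKM in CCND2-expressing cells, where the groups overlapped, and rose from 8.93 and 13.6 to 32.7 and 66.2 FPKM in FGFR3-expressing cells. The change there was 1.98 (SE 0.36, limma adjusted p = 0.00688). HIST2H4A had the same values within 1% in 6 of 8 libraries and cannot be told apart from it. HIST1H4E (Entrez 8367) passed the filter only through the FGFR3-expressing CTBP2 libraries: it rose from 0.337 and 0.265 to 6.68 and 7.33 FPKM there, by 2.62 (SE 0.16, adjusted p = 0.000178). In CCND2-expressing cells it rose from 0.277 and 0 to 1.10 and 0.990 FPKM, by 0.85 (SE 0.16, adjusted p = 0.0253). Its groups were apart in both states.

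HIST1H4H (Entrez 8365) was at 1.69 and 0 against 4.24 and 3.01 FPKM in CCND2-expressing cells and at 1.72 and 10.2 against 17.3 and 49.0 FPKM in FGFR3-expressing cells. Replicates of this gene spread widely, the change in FGFR3-expressing cells was 2.45 (SE 0.73, limma adjusted p = 0.0354), and over the 6 libraries neither that nor the value for both lines together passed (1.73 and 1.70, adjusted p = 0.172 and 0.0527). In CCND2-expressing cells its difference of 1.48 passed with the replicate block (adjusted p = 0.0104) and not without it (0.233). HIST4H4 (Entrez 121504), the lone gene of the HIST4 cluster, was at 0.236 and 0 against 0.562 and 0.211 FPKM in CCND2-expressing cells, where the groups overlapped. It was listed at 0 in both FGFR3-expressing empty vector libraries and was at 1.19 and 1.37 FPKM with CTBP2, a few fragments above the filter (limma adjusted p = 0.00303).

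Of the 27 untested genes, 25 stayed under 1 FPKM in every library and 4 were listed at 0 throughout (HIST1H2APS1, HIST1H2BA, HIST1H4G and HIST1H4L). HIST1H3A and HIST1H2BE reached 3.57 and 2.32 FPKM in 1 FGFR3-expressing CTBP2 library each, just outside the rule of 2 libraries. HIST1H4C was among the untested genes, at no more than 0.618 FPKM.

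**Figure D4:**
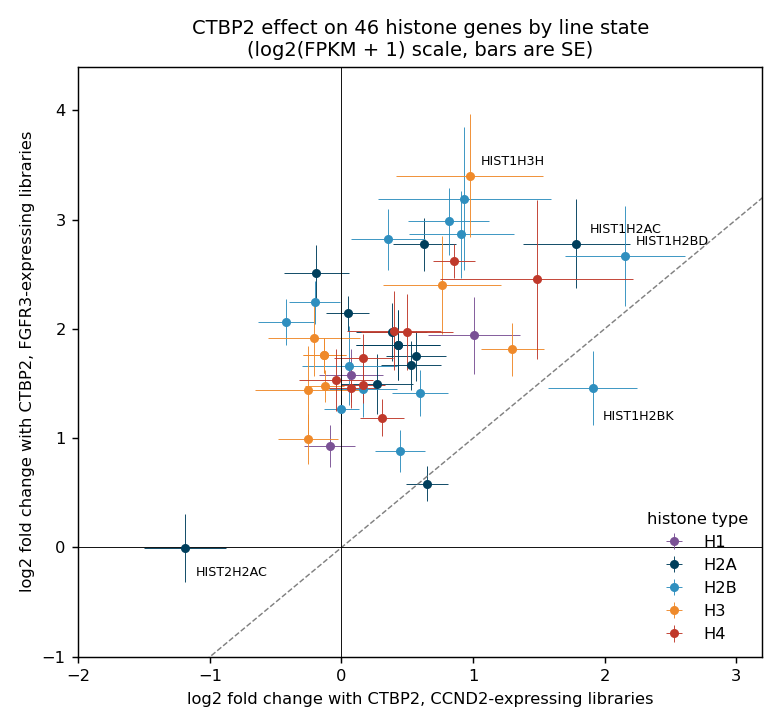
Log2 fold change with CTBP2 of the 46 tested histone genes in FGFR3-expressing libraries (vertical axis) against CCND2-expressing libraries (horizontal axis), with standard errors and the line of equality dashed. Apart from HIST1H2BK and HIST3H2A, points lie above the dashed line.

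The difference of the CTBP2 effect between the marker states was tested directly. The effect was larger in FGFR3-expressing cells for 12 of 46 histone genes and smaller for 0, where 0.922% of all tested genes were called larger. The median difference was 1.49, against 0.02 over all genes. With the line as labelled it turned to -0.72, with 6 of 46 genes positive. Of the 12 genes, 5 had passed the filter only through the FGFR3-expressing CTBP2 libraries. Among the 29 that passed in the other 6 libraries, 7 were called larger, against 0.588% of genes chosen the same way. With the replicate block the count was 35 of 46 (5.37% of all genes). No histone gene was called over the 6 libraries, in which 0.124% of all genes were called larger and 19 of 35 histone genes had an unadjusted p under 0.05 (11.8% of all genes did), and 0 were called with the line as labelled (0.00795% of all genes). This count moved with single libraries too. Fits without 1 library leave a group of 1 and mostly called fewer genes of any kind. Across them the median difference of the histone genes ran from 1.23 without NCI-H929 empty vector replicate 1 to 1.74 without replicate 2. Over all genes it was -0.01 to 0.04.

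Leading that comparison was HIST1H2AJ (Entrez 8331), at 0.849 and 1.23 against 1.26 and 0.949 FPKM in CCND2-expressing cells and at 0.705 and 0.509 against 6.38 and 5.79 FPKM in FGFR3-expressing cells. The difference was 2.09 (SE 0.23, limma adjusted p = 0.0150). HIST1H2BJ (Entrez 8970) was at 1.65 and 0.965 against 1.16 and 0.819 FPKM in the former state and at 0.973 and 1.41 against 8.93 and 9.70 FPKM in the latter, a difference of 2.44 (SE 0.27, adjusted p = 0.0150). For both genes the groups overlapped in CCND2-expressing cells and were apart in FGFR3-expressing cells.

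HIST2H2BF (Entrez 440689) was at 0.525 and 0.923 against 0.335 and 0.224 FPKM in CCND2-expressing cells and at 0.506 and 1.07 against 5.48 and 7.42 FPKM in FGFR3-expressing cells. Its difference was 2.49 (SE 0.30, limma adjusted p = 0.0152). HIST2H3A (Entrez 333932) and HIST2H3C (Entrez 126961), copies with the same values within 1% in all 8 libraries, were at 0.0843 and 0.267 against 0.0669 and 0.0755 FPKM in CCND2-expressing cells and at 1.46 and 1.59 against 6.60 and 8.63 FPKM in FGFR3-expressing cells. They differed by 1.89 (SE 0.23, adjusted p = 0.0152) and count as 1 signal. In CCND2-expressing cells these copies were at or under 0.267 FPKM in every library.

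The lines already differed with the empty vector, where labels and markers match. NCI-H929 was higher than MM.1S for 19 of 46 histone genes and lower for 0, where 22.1% of all tested genes were called higher and 28.7% lower. Without both displaced libraries 21 of 35 were higher (24.0% of all genes), and with the line as labelled, which widens the error of the fit, 0 were, with 2 at an unadjusted p under 0.05. In that as-labelled fit 1 of all 12583 genes was called higher. There 24.4% of all genes had an unadjusted limma p under 0.05, against 4.35% of the histone genes. By marker state over 8 libraries, 9 of the 11 tested HIST2 genes were higher. Of the 32 tested HIST1 genes 8 were, near the share over all genes. The 9 include both members of the copy pairs HIST2H2AA3 and HIST2H2AA4, HIST2H3A and HIST2H3C, and HIST2H4A and HIST2H4B. Each pair counts as 1 signal. HIST1H2BK was at 67.7 and 123 FPKM in NCI-H929 and at 9.58 and 10.5 FPKM in MM.1S, a log2 difference of 3.06 (SE 0.34, limma adjusted p = 0.000168). The HIST2H4A and HIST2H4B copies differed by 2.93 and 2.83 (adjusted p = 0.000247 and 0.000373) and HIST3H2A by 1.63 (SE 0.16, adjusted p = 8.51e-05). HIST2H2BC (Entrez 337873), a pseudogene of the HIST2 cluster with an annotated transcript, was at 16.5 and 15.99 FPKM in NCI-H929 and 2.61 and 1.88 FPKM in MM.1S, a difference of 2.42 (SE 0.19, adjusted p = 2.94e-05). With CTBP2 it rose by 0.88 in FGFR3-expressing cells (SE 0.19, adjusted p = 0.0126), to 33.8 and 27.9 FPKM. In CCND2-expressing cells, at 4.03 and 2.84 FPKM with CTBP2, it passed with the replicate block (adjusted p = 0.0371) and not without it (0.185).

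Many H2A and H2B genes sit head to head, sharing the DNA between their starts. The promoter table held 13 head-to-head pairs under 1000 bases apart, 11 of an H2A with an H2B gene and 2 of an H3 with an H2B gene. HIST2H2BE and HIST2H2AC, 236 bases apart, were singled out after their values were seen. HIST2H2BE (Entrez 8349) was at 0.843 and 0.745 against 3.16 and 1.73 FPKM in CCND2-expressing cells and rose from 2.96 and 7.55 to 30.7 and 55.8 FPKM in FGFR3-expressing cells, by 2.87 (SE 0.40, limma adjusted p = 0.00284). In CCND2-expressing cells it passed with the replicate block (adjusted p = 0.0113) and not without it (0.187). HIST2H2AC (Entrez 8338) was at 2.85 and 3.01 against 0.678 and 0.765 FPKM in CCND2-expressing cells and at 9.02 and 4.58 against 8.68 and 4.72 FPKM in FGFR3-expressing cells. Its values of -1.19 (SE 0.31, adjusted p = 0.0624) and -0.01 (SE 0.31, adjusted p = 0.990) made it the 1 tested histone gene not called higher in the second state. The first of these passed over the 6 libraries (-1.23, adjusted p = 0.0451) and with the replicate block (adjusted p = 0.00331). In the pair HIST1H2BC and HIST1H2AC, 246 bases apart, both genes rose in FGFR3-expressing cells, by 2.82 and 2.78. The difference between genes of a pair was not tested.

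The octamer was set beside the changes of H2A and H2B genes. The 9 tested H2B genes with the octamer had changes of 1.45 to 3.19 in FGFR3-expressing cells, with a median of 2.24, and the 3 without it changes of 1.26 to 2.66, with a median of 1.41. The H2B pseudogene HIST2H2BC had no matched promoter. For H2A, medians were 1.97 over 7 genes with it and 1.86 over 5 without. In some head-to-head pairs the same octamer counts for both genes. These are descriptions with no test.

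**Figure D5:**
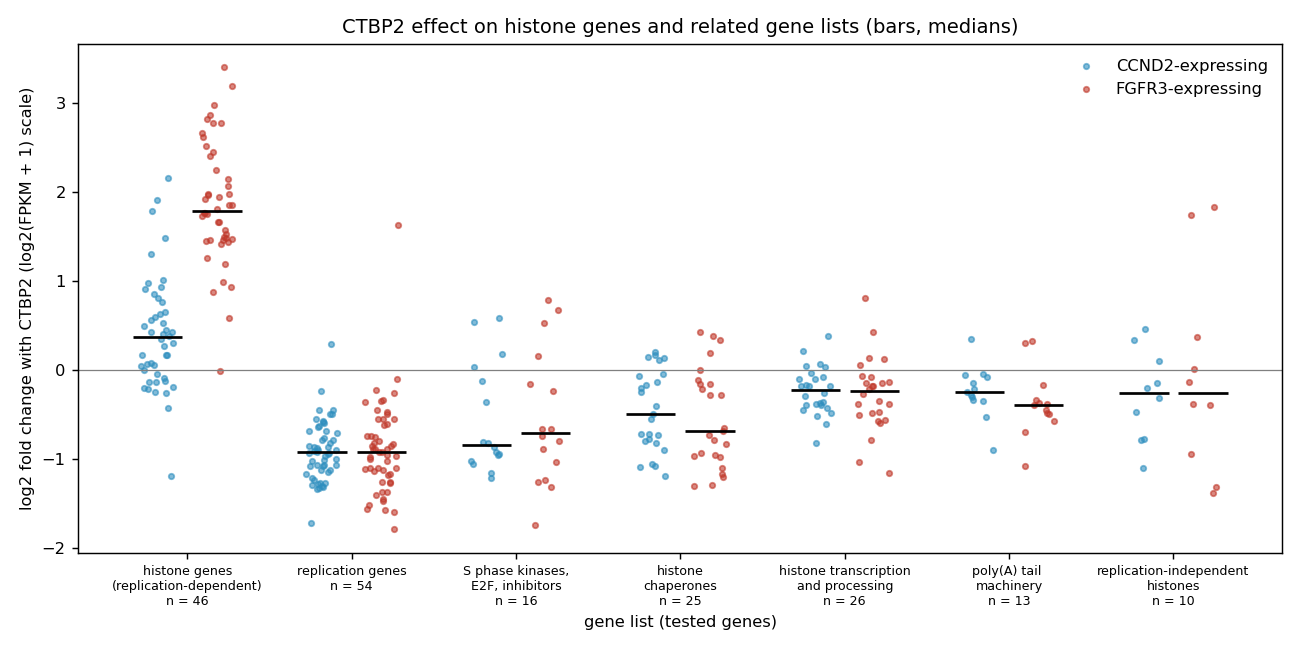
Log2 fold change with CTBP2 of each tested gene in the histone set and in 6 related gene lists, by marker state, with medians as bars. Histone genes lie mostly above 0 and replication genes mostly below it, with medians of 1.79 and -0.92 in FGFR3-expressing cells.

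Of 54 listed genes of replication origins, forks and nucleotide supply, all tested, 49 fell and 1 rose in both lines together, where 16.7% of all tested genes were called lower. Their median log2 fold change was -0.95. Over the 6 libraries 43 fell and 1 rose, and with the line as labelled 5 fell and 0 rose. In FGFR3-expressing cells 30 fell and 1 rose (14.6% of all genes lower), and in CCND2-expressing cells 3 fell (1.80%), or 50 with the replicate block. The median was near -0.93 in each state, and 0 of the 54 were called for a difference between states, where 1.26% of all genes were. Equal library totals, here and below, were set with immunoglobulin genes and CTBP2 left out of the totals. They shifted the median of all genes from 0.04 to 0.27 in both lines together. The list's median was then -0.67, with 37 genes lower (6.84% of all genes).

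DSCC1, part of a clamp loader for sister chromatid cohesion, fell by 1.75 (SE 0.21, limma adjusted p = 0.00238), from 11.96 and 9.84 to 2.02 and 3.31 FPKM in CCND2-expressing cells and from 15.4 and 12.3 to 4.89 and 2.07 FPKM in FGFR3-expressing cells. MCM10, which helps start forks, fell by 1.41, DBF4, the activator of the CDC7 kinase, fell by 0.82, and POLA1, the catalytic subunit of polymerase alpha, fell by 0.76 (adjusted p = 0.00434, 0.00445 and 0.00469). ORC4, an origin recognition subunit, was the 1 that rose, by 0.96 (SE 0.27, adjusted p = 0.0242).

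Among 16 cyclins, kinases, inhibitors and E2F factors of S phase entry, 10 fell and 0 rose in both lines together, as they did over the 6 libraries, but 1 fell with the line as labelled. By marker state, 16.7% of all tested genes were called lower in both lines together. SKP2, which directs degradation of a CDK inhibitor, fell by 0.91, CCNE1, the cyclin of S phase entry, fell by 0.86, CDC25A, a phosphatase that activates CDKs, fell by 1.45, and E2F1 fell by 1.23 (limma adjusted p = 0.00212, 0.00401, 0.00456 and 0.00667).

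Of 26 tested genes for histone transcription and processing, 8 fell and 1 rose in both lines together (16.7% of all genes lower, 17.4% higher). The 6-library fit gave 6 that fell and 1 that rose, and with the line as labelled 1 fell. SLBP, the stem-loop binding protein, was at 93.7 and 108 against 50.6 and 62.9 FPKM in CCND2-expressing cells and at 72.0 and 65.4 against 30.8 and 29.6 FPKM in FGFR3-expressing cells. It fell by 0.82 (SE 0.17, limma adjusted p = 0.0340) and by 1.16 (SE 0.17, adjusted p = 0.00326), with separate groups in both. In both lines together LSM10, a subunit of the U7 particle that positions the cut after the stem-loop, fell by 0.82, ERI1, an exonuclease that trims the stem-loop end, fell by 0.52, and NCBP1, a cap-binding protein, fell by 0.48 (adjusted p = 0.00668, 0.0150 and 0.0109). ZCCHC11, a uridylyltransferase, rose by 0.59 (adjusted p = 0.0286). With equal library totals 3 rose and 2 fell, so the count for this list follows the scaling.

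NPAT, the coactivator of histone genes that cyclin E and CDK2 phosphorylate, was at 5.07 and 4.31 against 3.89 and 4.16 FPKM in CCND2-expressing cells and at 6.18 and 6.64 against 5.01 and 8.86 FPKM in FGFR3-expressing cells. It is named here after its value was seen, the groups overlapped in the second state, and the change in both lines was -0.06 (SE 0.16, limma adjusted p = 0.786). Of 13 genes of the poly(A) tail machinery, 5 fell and 0 rose, over the 6 libraries 3 fell, and with the line as labelled 1 fell. By marker state over 8 libraries, 16.7% of all tested genes were called lower in both lines together. With equal totals 1 gene of this list fell and 1 rose (6.84% of all genes lower, 30.0% higher). PABPC4 and PABPC1, poly(A)-binding proteins, fell by 0.99 and 0.53, NUDT21, a cleavage factor that picks poly(A) sites, fell by 0.51, and PAPD7, a poly(A) polymerase, fell by 0.40 (adjusted p = 0.00276, 0.0211, 0.00858 and 0.0163).

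In both lines together 16.7% of all tested genes were called lower and 17.4% higher. Of 10 tested histone variants outside the replication-dependent families, 2 rose there, near the share over all genes, and 3 fell. Over the 6 libraries 3 fell and 1 rose, and with the line as labelled 1 fell. Their median of -0.27 became 0.03 with equal library totals. H2AFZ, the abundant H2A.Z gene, was at 704 and 834 against 295 and 429 FPKM in CCND2-expressing cells and at 561 and 380.2 against 323 and 177 FPKM in FGFR3-expressing cells, and fell by 1.03 (SE 0.24, limma adjusted p = 0.0123). H2AFX, phosphorylated at DNA breaks, fell by 1.05, and CENPA, the centromeric H3, fell by 1.08 (adjusted p = 0.0106 and 0.0230). H3F3A, which encodes the H3.3 variant deposited outside S phase, rose by 1.10 (SE 0.33, adjusted p = 0.0325), and H2AFJ rose by 0.36 (adjusted p = 0.0361). H1F0, a linker histone of resting and differentiated cells, rose by 1.83 in FGFR3-expressing cells (SE 0.39, adjusted p = 0.0113), from 10.7 and 4.51 to 19.2 and 39.3 FPKM, and was under 0.12 FPKM in CCND2-expressing cells. It was named after its value was seen.

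Beside the next lists, 16.7% of all tested genes were called lower and 17.4% higher in both lines together. Of 25 histone chaperones and assembly factors, 13 fell and 0 rose in that fit. With the line as labelled 0 fell, and in the 6-library fit 12 did. TONSL, which binds new H4 behind forks, fell by 1.25, IPO4, a histone importer, fell by 0.96, NASP, an H3 and H4 chaperone, fell by 0.91, and SSRP1, a subunit of the FACT complex, fell by 0.88 (limma adjusted p = 0.00462, 0.00525, 0.00769 and 0.00668). Of 18 genes of growth arrest and cell cycle exit, 5 rose and 2 fell, over the 6 libraries 4 rose and 2 fell, and with the line as labelled 1 rose. MXD4, a partner of MAX that opposes MYC, rose by 1.01 and BTG2, an antiproliferative gene, rose by 0.90, while LIN9, of the MuvB complex, fell by 0.88 and RBL1, a relative of RB, fell by 0.57 (adjusted p = 0.00259, 0.0119, 0.00623 and 0.00971). With equal library totals, where 30.0% of all genes were called higher and 6.84% lower, the S phase list had 8 genes lower and 1 higher, the chaperones 10 lower and 2 higher, and the growth arrest list 7 higher and 1 lower.

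Markers of other cells were set beside these results. The 8 plasma cell markers were all expressed, with sums of 1699.8 to 3469 FPKM per library. The 6 T cell markers summed to 0.589 to 3.72 FPKM in the empty vector libraries, 5.37 and 2.86 FPKM in CCND2-expressing CTBP2 libraries and 17.3 and 54.7 FPKM in FGFR3-expressing ones. CD3E gave nearly all of it, at 16.7 and 53.1 FPKM in the last pair, and rose by 3.02 in FGFR3-expressing cells (limma adjusted p = 0.00510). The other 5 T cell markers stayed under 1 FPKM, with CD3D and CD3G at or under 0.214 FPKM in every library. The 5 myeloid markers summed to 4.81 and 2.90 FPKM in CCND2-expressing CTBP2 libraries, mostly ITGAM, and to 0.544 to 1.78 FPKM elsewhere. The 6 epithelial and packaging cell markers, mostly VIM, summed to 53.7 and 54.9 FPKM with the empty vector and 19.03 and 24.997 FPKM with CTBP2 in CCND2-expressing cells. In FGFR3-expressing cells these sums were 522 and 454 FPKM with the empty vector and 568 and 508 FPKM with CTBP2. CD3E moved with the histone genes across groups, and its part in their result was not tested.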

How the data were processed

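RNA-seq covered 8 libraries, 2 for each myeloma line and vector. Per the labels' protocols, total RNA was extracted with RNeasy and libraries were made with a TruSeq RNA kit. The authors deposited FPKM values per gene on GRCh37 (hg19), and tools listed by the submitters' processing notes include Trimmomatic 0.36.5, FastQC 0.11.7, HTSeq 0.9.1 and STAR 2.6.0b-1. The program and gene models behind the FPKM values, and strand use, have no statement in these sources, so reads of near-identical or overlapping histone genes may be split between them. Low FPKM values were not clean multiples of 1 fragment (51.5 to 60.5% whole within 0.1 of a fragment, where chance gives 20%), so no count test was run and depths are estimates.

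Genes with 1 FPKM or more in 2 libraries were tested with limma 3.58.1 in R 4.3.3 on log2(FPKM + 1), with trended eBayes over all 8 libraries (vector plus marker state for both lines together, and otherwise 1 mean per marker state and vector) and Benjamini-Hochberg adjustment over all 12583 genes (threshold 0.05). Marker state took CCND2 above 10 FPKM as MM.1S and FGFR3 above 10 FPKM as NCI-H929, and the vector came from the labels. Same-numbered libraries of a state deviated together (correlations 0.435 and 0.452, against 0.012 and 0.109 with the line as labelled), so the replicate number was also fitted as a block. The p-values measure the spread between these libraries. Named were the most abundant gene of each type, up to 4 called genes per type with the smallest p in both lines together, and up to 5 each for the difference of effects and the empty vector contrast. For other lists, up to 4 called genes were named. Members, lists and tests were chosen with earlier results of these data known. Scripts were tested on simulated data.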

Additional observations from a re-analysis of the deposited data

Results flagged for a closer look

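For 12 histone genes the CTBP2 effect differed between the marker states by the interaction test (limma adjusted p = 0.0150 to 0.0441). Over all tested genes 0.922% were called larger, and with the line as labelled 0 histone genes were called. HIST2H2BF, HIST1H4E, HIST1H3J, HIST1H4J and HIST3H2BB passed the filter only through the FGFR3-expressing CTBP2 libraries and so had to be high there. The log2 effect in FGFR3-expressing cells exceeded that in CCND2-expressing cells by 2.71 for HIST1H2AM, 2.49 for HIST2H2BF, 2.47 for HIST1H2BC, 2.44 for HIST1H2BJ, 2.15 for HIST1H2AI and 2.09 for HIST1H2AJ. It did so by 1.89 for the copies HIST2H3A and HIST2H3C (1 signal), 1.77 for HIST1H4E, 1.60 for HIST1H3J, 1.32 for HIST1H4J and 1.26 for HIST3H2BB. HIST3H2BB was listed at 0 in all 4 CCND2-expressing libraries. With both displaced libraries left out, 0 of the 10 genes that could be tested were called, and HIST1H3J and HIST3H2BB were not tested.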

How the results depend on the processing

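Counts below are histone genes called higher by limma, out of 30 in both lines together, 5 in CCND2-expressing cells, 45 in FGFR3-expressing cells, 12 for the difference of effects and 19 for NCI-H929 against MM.1S. With the line as labelled they were 1, 0, 0, 0 and 0, and 0 in the first 4 with the replicate block as labelled. Over the 6 libraries CCND2-expressing cells gave 9 and the difference 0, and the replicate block gave 13 and 35. With no filter both lines gave 15 and CCND2-expressing cells 0. A filter of 5 FPKM left 29 histone genes to test. It gave 3 in CCND2-expressing and 28 in FGFR3-expressing cells, against 251 and 1287 of 9021 genes. Quantile normalization gave 1 of 43 in CCND2-expressing cells (370 of 12554 genes), and a pseudocount of 0.1 gave 4 of 46 for the difference (54 of 12583 genes). Counted over genes that pass the filter in the 6 libraries other than FGFR3-expressing CTBP2, chosen after seeing the data, FGFR3-expressing cells gave 28 and the difference 7. Fits without MM.1S CTBP2 replicate 2 or NCI-H929 CTBP2 replicate 1 tested 35 histone genes. Fits without any other single library tested 46. Each such fit leaves a group of 1, and the number of all genes called moved as well. The next counts therefore cannot separate a shift of the histone genes from a shift in power. Across these fits the median log2 fold change of the histone genes was 0.79 to 1.25 in both lines (-0.001 to 0.04 over all genes). In FGFR3-expressing cells it was 1.60 to 2.15 (-0.002 to 0.07 over all genes). Leaving out each library in turn gave 17 to 35, 0 to 7, 30 to 45, 0 to 9 and 14 to 21. Both lines gave 17 without MM.1S CTBP2 replicate 2 or NCI-H929 CTBP2 replicate 1 and 18 without NCI-H929 empty vector replicate 2.

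Leaving 1 empty vector library out of the 6, chosen after seeing the data, gave 18, 18, 19 and 22 in both lines, 0 in CCND2-expressing cells each time, and 0, 0, 0 and 8 in FGFR3-expressing cells, with few residual degrees of freedom. The fits without MM.1S replicates 1 and 2 and NCI-H929 replicates 1 and 2 tested 35, 35, 34 and 32 histone genes. Within a state, those fits called few genes of any kind, so a count of 0 there does not show an absent change. In both lines the number of all genes called moved too, so those counts cannot separate a histone shift from one in power. The median log2 fold change of the histone genes was 1.26, 1.24, 0.90 and 1.25 in both lines (-0.02 to -0.01 over all genes). In FGFR3-expressing cells the median log2 fold change of the histone genes was 1.72, 1.72, 1.55 and 2.01 in the same order (-0.02 to 0.00 over all genes). In CCND2-expressing cells it was 0.71, 0.62, 0.68 and 0.71 (-0.02 to -0.01 over all genes). As labelled, with or without the block, the log2 change in the libraries labelled NCI-H929 was -0.25 for HIST2H2AA4, -0.26 for HIST3H2A, -0.16 for HIST1H2BK, -0.58 for HIST2H2BC, -0.59 for HIST2H4B and -0.60 for HIST2H4A, and the difference became -0.11 for HIST1H2BJ, -0.30 for HIST2H2BF and -1.27 for HIST2H3A and HIST2H3C. With equal totals, set without immunoglobulin genes and CTBP2, ratios of summed FPKM in FGFR3-expressing cells were 5.53 for all histone genes and 5.35 for H2A. They were 4.98 for H2B and 9.47 for H3 (2.13 for H3 in CCND2-expressing cells), and 6.50 for H3 with median-of-ratios scaling. Without the most abundant gene they were 7.37 for H1 (0.98 in CCND2-expressing cells), 5.54 for H2B and 5.72 for H3. Causes of these shifts were not tested.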
